A study of Mus musculus with 8 samples.

Results

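The 33 genes described here encode the machinery of autophagy and of the lysosome, and were taken by symbol from a list chosen with earlier results of these data known. All 33 were found among the 54532 genes of the deposited tables, and all 33 passed the filter on low counts that left 17004 genes for testing. RNA sequencing of mouse retina gave 8 libraries, 4 labelled sIVs and 4 labelled PBS (phosphate-buffered saline, taken as the control), with replicates numbered 1, 3, 4 and 5 in each. The title of the series gives sIVs as small intracellular vesicles, membrane vesicles from inside cells, and sets them against small extracellular vesicles for uptake and for protection of the retina; vesicles of the latter kind are in no library analysed here. The labels named no strain, age, sex, dose, route, time or injury, and did not say whether the libraries of a group came from separate animals, so that p-values measure only the spread between these libraries, which may be technical. The comparison is of the levels of these transcripts between sIVs and PBS retinas.

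In macroautophagy a membrane grows around cytoplasm, closes into an autophagosome and fuses with a lysosome, where acid hydrolases break the contents down. Endocytosed material, vesicles included, can end in the same lysosomes. In the retina the pathway recycles organelles of photoreceptors and neurons, and the pigment epithelium behind the retina uses lysosomes to digest shed photoreceptor tips. The transcription factors TFEB and TFE3 switch on many lysosomal and autophagy genes through the CLEAR element, a palindrome built on the E-box CACGTG.

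Promoters of the members were searched for that element, because it is the best known sequence that lysosomal genes share. For that reason a higher share among the members than among all genes was likely beforehand, and the shares below only describe the list. RefSeq promoter windows (GRCm38.p6, 250 bases before to 50 after a transcription start) matched 27 of the 33 members, in 32 windows. Atg12, Atg16l1, Becn1, Ctsb, Map1lc3a and Npc1 were not matched. The 3 motifs read the same on both strands, and the shorter ones lie within the longer. The 6-base CACGTG was found for 9 of the 27 members (33.3%), namely Atg5, Atg7, Ctsa, Ctsd, Ctsl, Gaa, Glb1, Lamp1 and Mcoln1, against 8.09% of 27025 genes and 7.15% of all 32851 windows. The 8-base TCACGTGA was found for Ctsa, Ctsd and Mcoln1 (11.1% of 27), against 1.12% of genes and 0.974% of windows. The 10-base form, TCACGTGA with G before and C after it, was found for 0 of the 27 and for 0.37% of genes and 0.326% of windows. The stretches below carry the 8-base form or, in Lamp1, the most matches of any member; capitals mark CACGTG, or TCACGTGA where the flanking bases match too.
Ctsa (chr2:164833736-164833792, plus strand, GRCm38.p6): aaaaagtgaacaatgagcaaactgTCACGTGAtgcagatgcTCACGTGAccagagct
Ctsd (chr7:142387895-142387950, minus strand): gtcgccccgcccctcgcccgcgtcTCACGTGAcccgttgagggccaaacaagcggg
Mcoln1 (chr8:3500423-3500504, plus strand): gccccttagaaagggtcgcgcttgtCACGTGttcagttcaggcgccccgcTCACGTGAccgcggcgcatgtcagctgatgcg
Lamp1 (chr8:13159075-13159176, plus strand): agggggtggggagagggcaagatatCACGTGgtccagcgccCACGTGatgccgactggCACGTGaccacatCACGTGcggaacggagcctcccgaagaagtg
In Lamp1 the 4 matches began 61, 45, 28 and 15 bases before the listed start. In Ctsa the 2 matches lay on both sides of it. A match describes letters only, and no binding was measured.

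Levels were compared between genes as FPKM, fragments scaled to the listed gene length and to library size. They ran from 2.16 ± 0.492 (SD, n = 8 libraries) for Tfeb to 310 ± 61.1 for Psap, which encodes the precursor of the saposins that help hydrolases digest sphingolipids. The Psap level lay above 99.7% of tested genes. Next came Ctsd, the aspartic protease cathepsin D, at 166 ± 98.7 FPKM, Gabarapl1, an Atg8 family protein, at 98.8 ± 6.51, and Ctsb, the cysteine protease cathepsin B, at 87.3 ± 24.0. Neighbours in this order overlapped in mean ± SD, although Psap stood above Ctsd in each of the 8 libraries. At the low end, above Tfeb, stood Atg7, the enzyme that activates Atg8 and Atg12 for conjugation, at 3.78 ± 0.303, and the beta-galactosidase gene Glb1 at 4.09 ± 1.34 FPKM, whose mean ± SD overlapped each other and not that of Tfeb. The lysosome members together held 881 FPKM and the autophagy members 525.

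**Figure D1:**
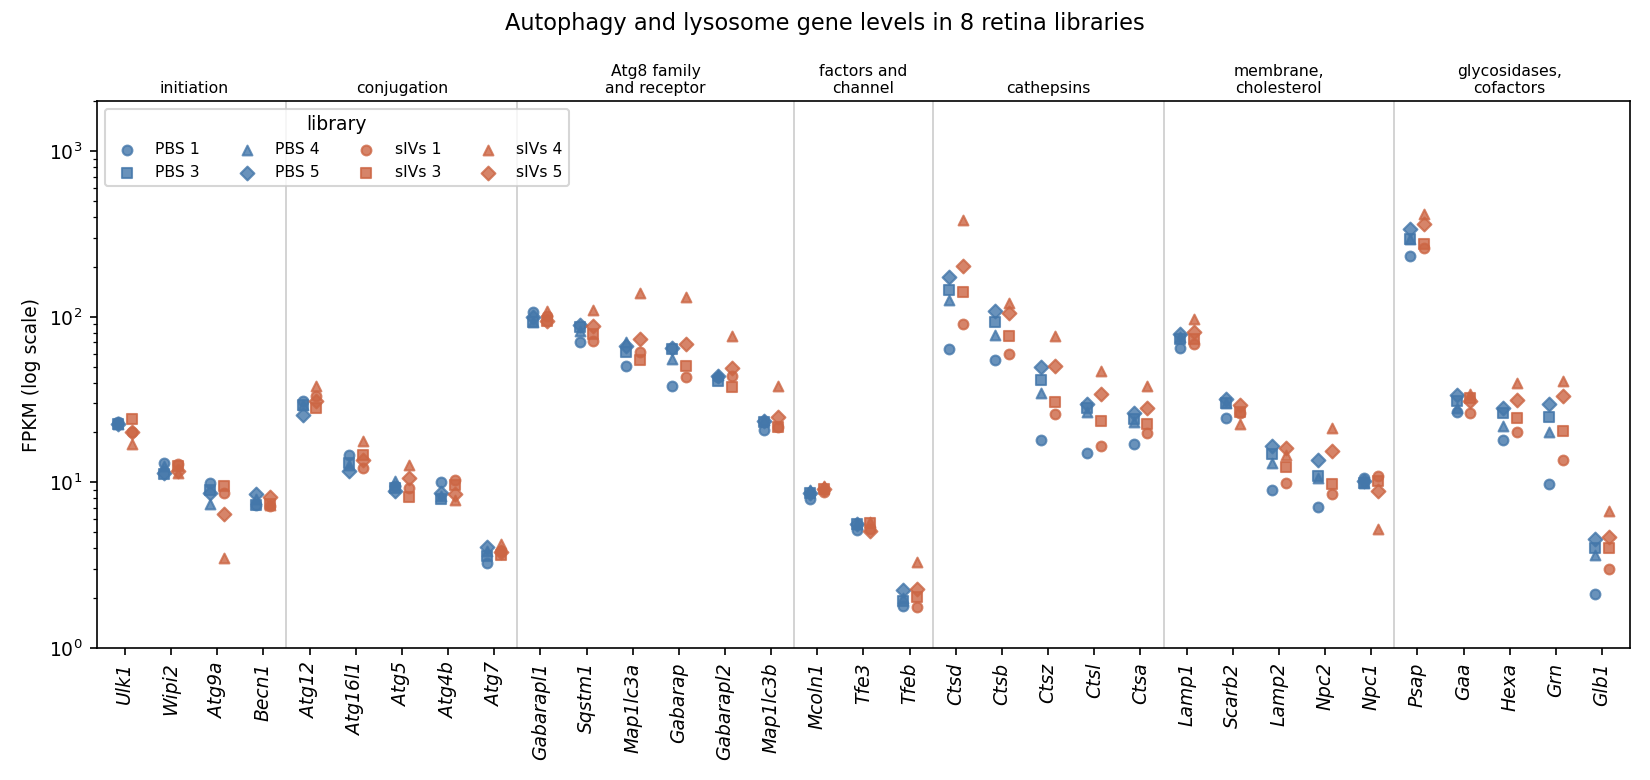
FPKM (log scale) of the 33 members in each of the 8 libraries, grouped by role, with blue symbols for PBS and orange for sIVs and the symbol shape giving the replicate. The means over 8 libraries run from 2.16 for Tfeb to 310 for Psap; symbols of sIVs replicate 4 lie apart for Ctsd, Gabarap, Map1lc3a and, on the low side, Atg9a and Npc1.

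No member passed the test between sIVs and PBS retinas. Of the 33, 0 had an edgeR adjusted p under 0.05 (0.0% of all 17004 genes did), the values lying between 0.81 and 0.996, and 0 had an unadjusted p under 0.05 (1.5% of all genes did, 1.04% with the higher level in sIVs and 0.459% in PBS retinas). No member separated the groups without overlap, against 2.01% of all genes, 1.08% higher and 0.929% lower in sIVs retinas. With all 8 libraries 26 of 33 members had a positive log2 difference, against 51.3% of all genes, and the median was 0.14 against 0.01 over all genes. These 2 values rested on 1 library: without sIVs replicate 4, 18 of 33 were positive against 50.3% of all genes, and the median was 0.02. With PBS replicate 1 left out as well, a setting chosen after seeing the data, 9 were positive (50.7% of all genes). That setting drops the PBS library lowest for 18 of 33 members and the sIVs library highest for 25. Lower differences were thus built into it. With limma-voom and sample quality weights 12 were positive (49.2%). Without PBS replicate 1 alone 25 were positive (51.0%). The 95% confidence interval lay within a log2 difference of 1 on either side for 25 of 33 members (74.1% of all genes) and within 1.5-fold for 16 (41.8% of all genes). For the other 8 members a 2-fold difference lay within the interval. Of the 144 related genes taken up below, 0 had an adjusted p under 0.05.

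**Figure D2:**
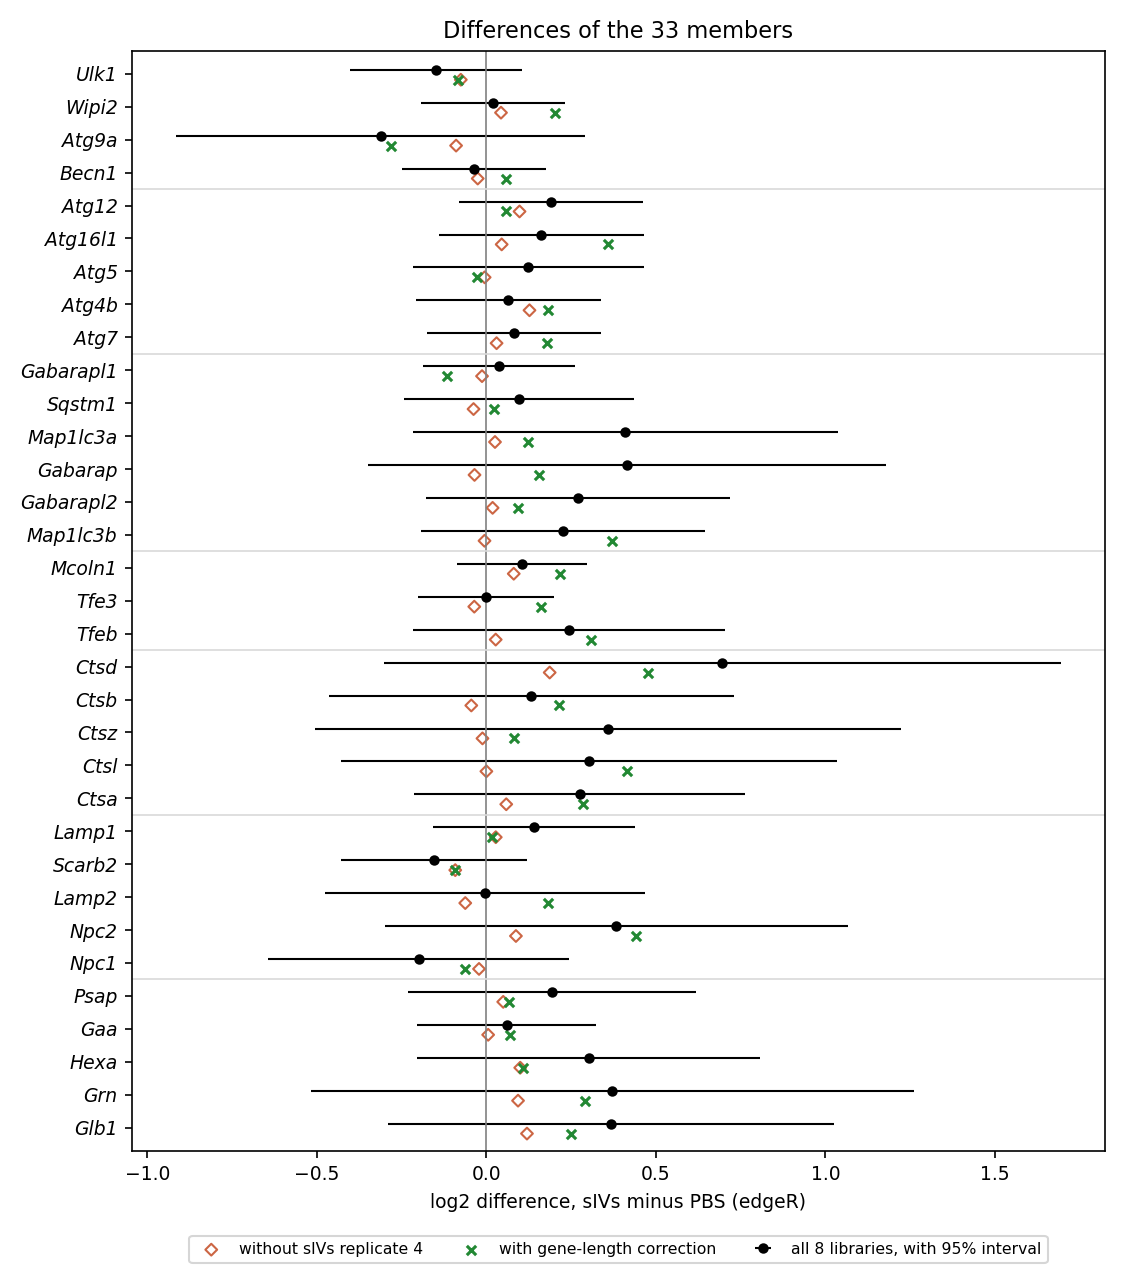
Log2 difference between sIVs and PBS retinas for each member (edgeR), as a black point with its 95% confidence interval over all 8 libraries, an open diamond without sIVs replicate 4, and a green cross after a correction for gene length. All 33 intervals include 0, and without sIVs replicate 4 the median of the 33 points is 0.02.

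In these genes 2 libraries were most often at the extremes. The sIVs replicate 4 was the highest of the 8 libraries for 25 of 33 members, and PBS replicate 1 the lowest for 18. How often these libraries were highest or lowest over all tested genes was not counted, here or for the lists below. CPM are counts scaled to the TMM-adjusted library size. Each gene was set relative to its own average of log2 CPM across the 8 libraries. The mean of these deviations over members was 0.38 in sIVs replicate 4 and -0.31 in PBS replicate 1. It was between -0.20 and 0.14 in the other 6, with sIVs replicate 1, at -0.20, not far from PBS replicate 1. With Tfeb, Tfe3 and Mcoln1 counted among the 18 autophagy members, the 15 lysosome members spread more: that mean ran from -0.58 to 0.53 for the former and from -0.08 to 0.25 for the latter. The median within-group SD of log2 CPM was 0.37 for lysosome and 0.18 for autophagy members, against 0.29 over all tested genes. Over all tested genes too, sIVs replicate 4 stood apart, with median deviations of 0.51 in the shortest and -0.41 in the longest of 4 length classes.

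**Figure D3:**
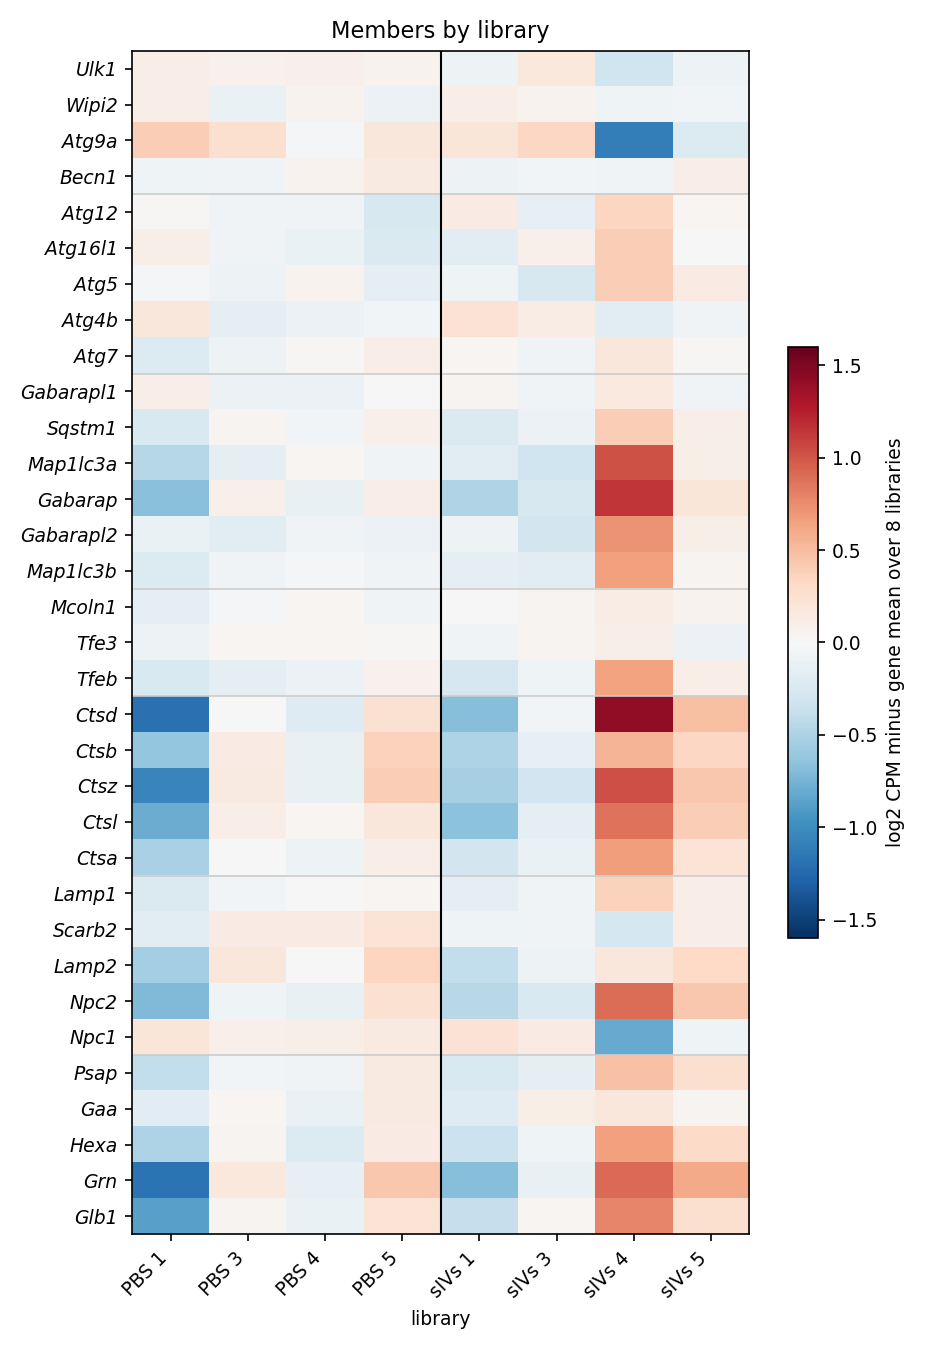
Level of each member (rows, by role) in each library (columns) as the deviation of log2 CPM from the average of that gene; red is above and blue below it. Red dominates the column of sIVs replicate 4, with the clearest exceptions in Ulk1, Atg9a, Scarb2 and Npc1, and blue dominates the cathepsin, Grn and Glb1 rows of PBS replicate 1.

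Initiation of autophagy had 4 members, 1 with a positive and 3 with a negative log2 difference (median -0.09). Ulk1, the kinase that starts autophagosome formation (chromosome 5, 110784488 to 110810097, mm10), stood at 153, 148, 150 and 148 CPM in PBS replicates 1, 3, 4 and 5 and at 134, 159, 113 and 133 CPM in the sIVs replicates of those numbers. The PBS values lay close together, and 3 of 4 sIVs values lay below them while replicate 3 lay above; the log2 difference was -0.15 ± 0.11 (SE; edgeR adjusted p = 0.81), or -0.076 without sIVs replicate 4. Atg9a, the scramblase whose vesicles seed the membrane, stood at 58.3, 52.9, 43.3 and 50.1 CPM in PBS and 50.6, 55.7, 20.6 and 38.2 CPM in sIVs retinas. It was lowest in sIVs replicate 4, and the difference was -0.31 ± 0.27 (SE; edgeR adjusted p = 0.81) with that library and -0.09 without it. Ankzf1 overlaps Atg9a on the other strand with nearly as many counts (99.4%), and the use of strand in counting is not given in the sources used here, so the Atg9a level is uncertain. Becn1, a subunit of the lipid kinase complex of autophagy, and Wipi2, which reads the lipid it makes, ranged only from 52.0 to 60.7 and from 121 to 140 CPM over the 8 libraries, with differences of -0.04 ± 0.09 and 0.02 ± 0.09 (SE).

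The 5 conjugation members, which attach Atg8 proteins to the membrane, all had a positive log2 difference, between 0.07 and 0.19. Atg12, a ubiquitin-like protein joined to Atg5, stood at 78.5, 74.6, 74.7 and 64.8 CPM in PBS and 84.8, 71.0, 98.5 and 79.3 CPM in sIVs retinas. The groups overlapped, and the difference was 0.19 ± 0.12 (SE; edgeR adjusted p = 0.81), or 0.10 without sIVs replicate 4. Atg16l1, which brings that pair to the membrane, stood at 143, 129, 125 and 115 CPM in PBS and 120, 143, 176 and 134 CPM in sIVs retinas. Here too sIVs replicate 4 was highest (difference 0.16 ± 0.13 SE; 0.04 without it). Atg5, Atg7 and the Atg8 protease Atg4b had differences of 0.12 ± 0.15, 0.08 ± 0.11 and 0.07 ± 0.12 (SE). All 5 intervals lay within 1.5-fold on either side.

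The Atg8 family coats the autophagosome and binds cargo receptors, and its 5 genes differed in how evenly they were expressed. Gabarapl1 was the steadiest, at 219, 189, 190 and 203 CPM in PBS and 208, 194, 226 and 194 CPM in sIVs retinas. All 8 values lay within that narrow band, and the difference was 0.04 ± 0.10 (SE; edgeR adjusted p = 0.908). Gabarap was the least even, at 71.5, 119, 105 and 121 CPM in PBS and 81.2, 95.1, 250 and 130 CPM in sIVs retinas, so that sIVs replicate 4 stood far above the other 7 libraries. Its difference was 0.41 ± 0.34 (SE; edgeR adjusted p = 0.81), and -0.035 without that library. The light chain 3 gene Map1lc3a stood at 60.4, 73.9, 84.7 and 79.7 CPM in PBS and 73.6, 66.3, 168 and 88.6 CPM in sIVs retinas (difference 0.41 ± 0.28 SE; 0.025 without sIVs replicate 4).

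Map1lc3b, the light chain 3 form most used as an autophagosome marker, stood at 159, 178, 183 and 178 CPM in PBS and 166, 165, 294 and 191 CPM in sIVs retinas. Gabarapl2 stood at 102, 97.4, 106 and 103 CPM in PBS and 104, 89.5, 182 and 117 CPM in sIVs retinas. In both genes 7 libraries lay close together and sIVs replicate 4 lay above them, with differences of 0.23 ± 0.19 and 0.27 ± 0.20 (SE) that were -0.0057 and 0.02 without it. Sqstm1, which encodes the cargo receptor p62, stood at 241, 295, 279 and 302 CPM in PBS and 244, 269, 378 and 304 CPM in sIVs retinas (difference 0.10 ± 0.15 SE; -0.038 without that library). All 6 genes of this group were highest in sIVs replicate 4. Zcchc14 overlaps Map1lc3b on the other strand with 62.9% as many counts.

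Of the regulators, Mcoln1, the lysosomal calcium channel mucolipin 1, was the most even of all 33 members within groups, with a pooled SD of log2 CPM of 0.065. It stood at 61.1, 66.7, 69.3 and 65.7 CPM in PBS and 67.6, 70.3, 73.9 and 70.7 CPM in sIVs retinas. In 15 of the 16 pairs of 1 sIVs and 1 PBS library the sIVs value was higher, the exception being sIVs replicate 1 against PBS replicate 4, and the difference was 0.11 ± 0.09 (SE, 95% interval -0.09 to 0.30; edgeR adjusted p = 0.81). Leaving out each library in turn it lay between 0.07 and 0.13. The 16 pairs share 8 libraries, and the share of all tested genes with such a count of pairs was not determined, here or below. Tfeb stood at 10.4, 11.1, 11.5 and 12.9 CPM in PBS and 10.2, 11.7, 19.2 and 13.2 CPM in sIVs retinas, again highest in sIVs replicate 4 (difference 0.24 ± 0.20 SE, 0.03 without it). Tfe3 ranged only from 48.5 to 55.0 CPM (difference -0.0021 ± 0.09 SE).

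The 5 cathepsins had the widest spread between libraries, with a median within-group SD of log2 CPM of 0.57. Ctsd (chromosome 7, 142375911 to 142388038, mm10) stood at 152, 347, 303 and 415 CPM in PBS and 218, 338, 932 and 486 CPM in sIVs retinas. The highest and lowest libraries differed far more than the group means, 304 ± 112 and 493 ± 312 CPM (SD, n = 4 each), and the difference of 0.70 ± 0.44 (SE; 95% interval -0.30 to 1.69; edgeR adjusted p = 0.81), although the largest of any member, was 0.19 without sIVs replicate 4. Ctsa, a carboxypeptidase that also protects beta-galactosidase, stood at 81.3, 116, 110 and 126 CPM in PBS and 95.2, 108, 185 and 136 CPM in sIVs retinas (difference 0.27 ± 0.22 SE; 0.058 without that library). Cathepsins Z, L and B, encoded by Ctsz, Ctsl and Ctsb, had differences of 0.36 ± 0.38, 0.30 ± 0.33 and 0.13 ± 0.26 (SE), and of -0.012, -0.00022 and -0.045 without it. All 5 were highest in sIVs replicate 4 and lowest in PBS replicate 1. With both of these libraries left out 0 of the 5 had a positive difference, but lower differences were built into that choice of libraries. Nelfcd overlaps Ctsz on the other strand with 122% as many counts, and the Ctsz level is therefore uncertain.

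Lysosomal membrane and cholesterol export genes differed in sign. Npc2, the soluble protein that hands cholesterol to Npc1, stood at 39.2, 60.8, 58.7 and 75.5 CPM in PBS and 47.0, 53.9, 118 and 86.1 CPM in sIVs retinas (difference 0.38 ± 0.30 SE; edgeR adjusted p = 0.81; 0.087 without sIVs replicate 4). Npc1, its partner in the membrane, ran from 108 to 116 CPM in PBS and stood at 119, 111, 58.0 and 97.0 CPM in sIVs retinas. The same library, sIVs replicate 4, was thus the highest of 8 for Npc2 and the lowest for Npc1 (difference -0.20 ± 0.20 SE, -0.022 without it). Scarb2, the membrane protein LIMP-2 that carries glucocerebrosidase to lysosomes, stood at 157, 193, 193 and 204 CPM in PBS and 167, 170, 145 and 189 CPM in sIVs retinas (difference -0.15 ± 0.12 SE; -0.092 without that library). Only 3 of 16 pairs had the higher Scarb2 value in the sIVs library. The abundant membrane glycoproteins Lamp1 and Lamp2 had differences of 0.14 ± 0.13 and -0.0034 ± 0.21 (SE). Grtp1 overlaps Lamp1 and Rmc1 overlaps Npc1 on the other strand, with 56.7% and 34.2% as many counts.

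The 5 glycosidase and cofactor genes all had positive differences, between 0.06 and 0.37. Hexa, the alpha subunit of hexosaminidase A, stood at 36.8, 53.5, 44.7 and 57.3 CPM in PBS and 41.0, 49.6, 82.3 and 64.4 CPM in sIVs retinas (difference 0.30 ± 0.22 SE). Glb1 stood at 6.50, 12.3, 11.2 and 13.9 CPM in PBS and 9.24, 12.3, 20.8 and 14.4 CPM in sIVs retinas (difference 0.37 ± 0.29 SE). Both were lowest in PBS replicate 1 and highest in sIVs replicate 4. Grn, which encodes progranulin, ran from 34.5 to 147 CPM over the 8 libraries (difference 0.37 ± 0.39 SE), whereas the acid alpha-glucosidase gene Gaa kept between 128 and 167 CPM (0.06 ± 0.12 SE). Psap had a difference of 0.19 ± 0.19 (SE). Tmppe overlaps Glb1 on the same strand with 38.8% as many counts, and Fam171a2 overlaps Grn on the other strand with 42.1%. The levels of Glb1 and Grn are therefore uncertain. Hexa, Glb1, Grn, Gaa and Psap had differences of 0.10, 0.12, 0.093, 0.0050 and 0.050 once sIVs replicate 4 was left out. With PBS replicate 1 and sIVs replicate 4 both left out, 0 of these 5 had a positive difference. Lower differences were built into that choice, as PBS replicate 1 was lowest for 4 and sIVs replicate 4 highest for all 5.

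Markers of some other cell types moved with these spreads. The summed level of 12 microglia and macrophage markers was 55.4 to 274 CPM in PBS and 155 to 369 CPM in sIVs retinas. All 12 had a positive difference (51.3% of all genes did), and each was detected in all 8 libraries. PBS replicate 1 was the lowest library for all 12. The other PBS sums, 188 to 274 CPM, lay within the sIVs range. P2ry12, a receptor of resting microglia, was the only one of the 12 without overlap between groups and the only one with an unadjusted p under 0.05 (0.0244; edgeR adjusted p = 0.81), against 2.01% and 1.5% of all genes. The order of the 8 libraries by that sum was PBS 1, sIVs 1, PBS 4, sIVs 3, PBS 3, PBS 5, sIVs 5 and sIVs 4, from lowest to highest. The sum of the 5 cathepsins ran through the same order of libraries from 698 to 2302 CPM. PBS 4 and sIVs 3 were nearly equal in it, at 1121 CPM. The sum of 7 Müller glia markers followed this order as well, from 3668 to 5981 CPM. Taken singly, 4 of these 7 were highest in sIVs replicate 4 and 4 were lowest in PBS replicate 1. Their mean deviation of log2 CPM, unlike their sum, was higher in PBS replicate 5 (0.29) than in sIVs replicate 5 (0.22). The list of microglia markers includes Cd68, a lysosomal membrane protein of macrophages. The pigment epithelium sum put 6 of the 8 libraries at the same rank, and the sums of the other 8 marker lists put 0 to 2 there. Initiation genes did not follow the order: 0 of 8 libraries had the same rank. In bulk retina a different number of cells of a type and a different amount of RNA per cell cannot be told apart, and the part of these cells in the member levels was not tested.

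**Figure D4:**
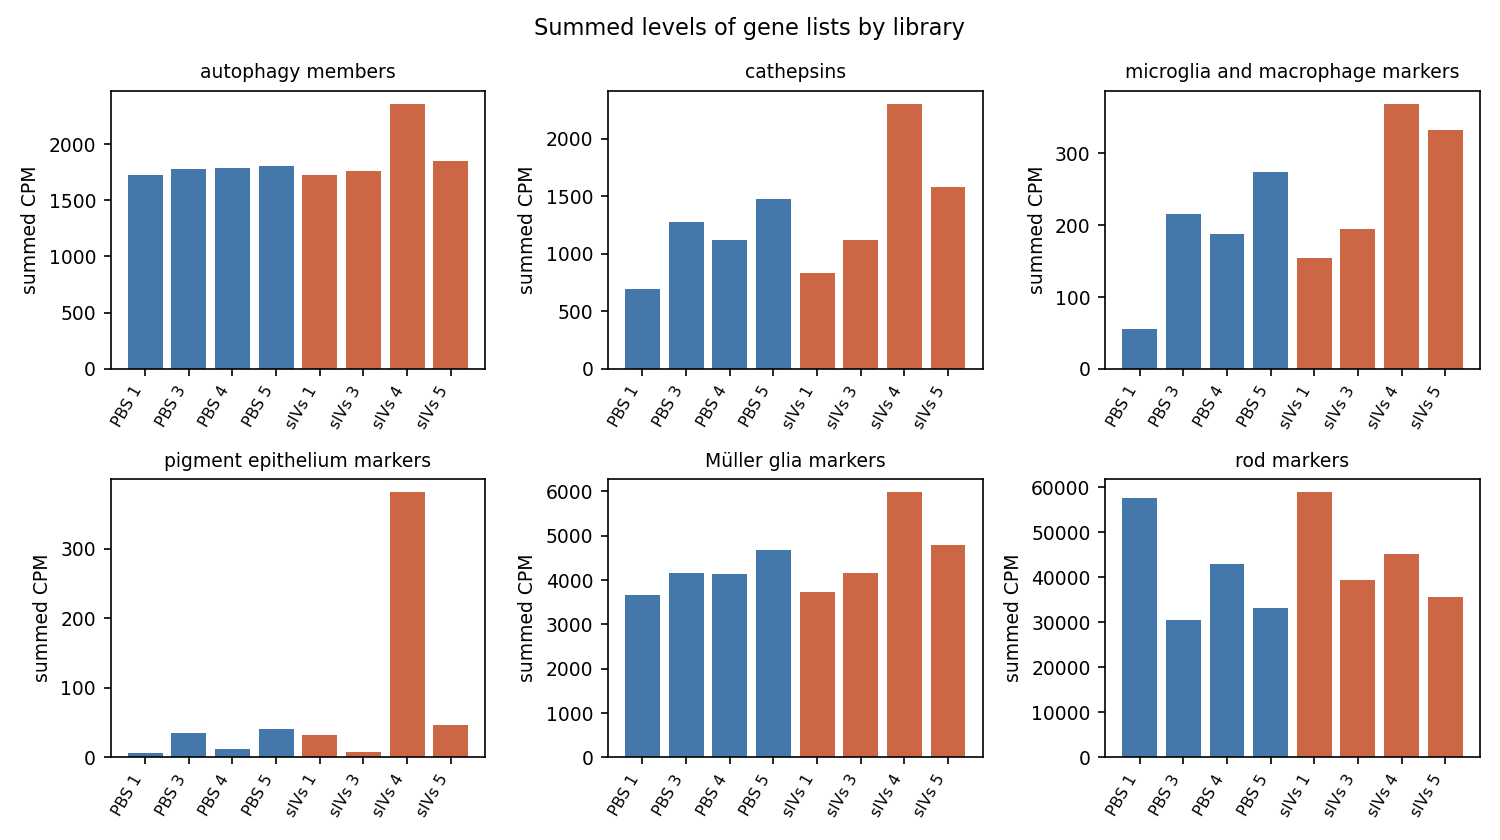
Summed CPM in each library (blue PBS, orange sIVs; bars start at 0) of the 18 autophagy members, the 5 cathepsins, and markers of microglia and macrophages, pigment epithelium, Müller glia and rods. The cathepsin, microglia and Müller glia sums put the 8 libraries in 1 order, from PBS replicate 1 to sIVs replicate 4, while the autophagy sum stays between 1722 and 1852 CPM in all but sIVs replicate 4, at 2359 CPM.

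Rod markers, such as Gnat1, were at 30595 to 58874 CPM in sum, highest in sIVs replicate 1 and PBS replicate 1, the 2 libraries lowest in cathepsins. These and the markers of cones, ganglion, bipolar and amacrine cells were all detected, as is usual in retina, while 6 lens markers summed to at most 0.42 CPM. The 9 pigment epithelium markers summed to 6.50 to 40.7 CPM in PBS and to 32.0, 7.81, 381 and 46.1 CPM in sIVs replicates 1, 3, 4 and 5. The sum of erythrocyte markers was 5.24 to 9.14 CPM in PBS and 9.37 to 26.7 CPM in sIVs retinas, highest in sIVs replicate 4. The groups did not overlap in this sum, but 0 of the 4 markers tested separated them (2.01% of all genes did). Of the 4, 3 had a positive and 1 a negative difference. Of these 4 markers 2 had an unadjusted p under 0.05 and the higher level in sIVs retinas (1.04% of all genes did), and 0 an adjusted one. The 5 endothelial markers summed to 288 to 570 CPM in PBS and 327 to 475 CPM in sIVs retinas. The library highest in most members, sIVs replicate 4, was also far the highest in the pigment epithelium sum. Of the 5 pigment epithelium markers tested, 4 were highest in that library and 1 in PBS replicate 5. The part of these cell types in the member levels was not tested.

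Gene length moved with sIVs replicate 4 too. Among protein-coding genes tested, those in the shortest of 4 length classes (204 to 2324 bases) had a median deviation of 0.71 in that library, and those in the longest (6295 bases and more) one of -0.41. The medians of the other 7 libraries lay between -0.20 and 0.09 for the shortest class. The 5 shortest members, Map1lc3a, Ctsz, Gabarap, Hexa and Gabarapl1, had a median of 1.02 in sIVs replicate 4, although Gabarapl1 stood at only 0.16. The 12 longest members had a median of 0.11, above the -0.41 of protein-coding genes of that length, with Npc1 at -0.80, Atg16l1 at 0.39 and Ctsl at 0.87. With a correction for gene length, chosen after seeing the data, 27 of 33 members had a positive difference (51.0% of all genes), with a median of 0.16 and 0 past the threshold. That correction took Gabarap from 0.41 to 0.16 and Map1lc3a from 0.41 to 0.12, and Map1lc3b, a long gene, from 0.23 to 0.37.

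**Figure D5:**
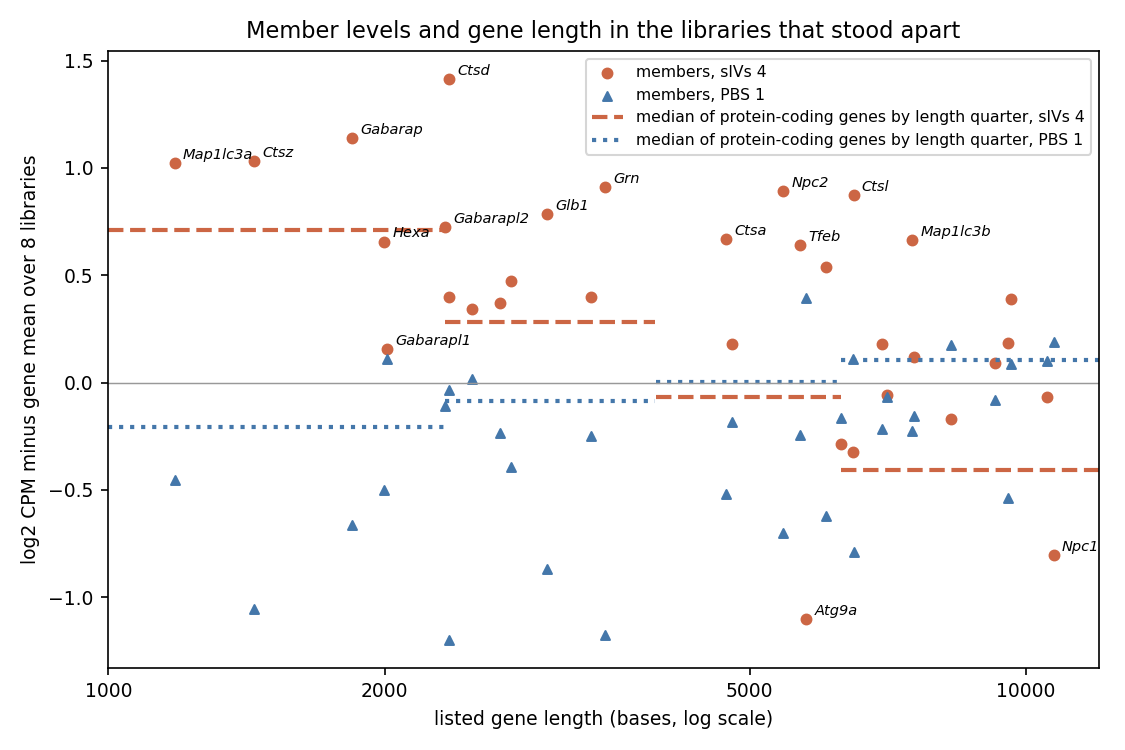
Level of each member in sIVs replicate 4 (orange circles) and PBS replicate 1 (blue triangles) as the deviation of log2 CPM from the average of the gene, against listed gene length (log scale); dashed and dotted lines are medians of protein-coding genes in each of 4 length classes. In sIVs replicate 4 these medians fall from 0.71 to -0.41 with length, and Ctsd, at 1.42, stands above and Atg9a, at -1.10, below the line of its class.

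The other genes of the pathway, 144 in 7 lists, gave 0 with an edgeR adjusted p under 0.05. Of these 85 had a positive and 59 a negative difference (59.0% positive, median 0.04). The 19 subunits of the V-ATPase, the pump that acidifies lysosomes, had 16 positive differences and a median of 0.21. Without sIVs replicate 4 there were 13, with a median of 0.02. Atp6v1e1 stood at 147, 142, 163 and 146 CPM in PBS and 164, 144, 315 and 177 CPM in sIVs retinas (difference 0.42 ± 0.23 SE), and Atp6v1h had a difference of 0.29 ± 0.16. Both were highest in that library, and without it the differences were 0.11 and 0.10. Of 35 other lysosomal hydrolases 25 had a positive difference (median 0.09), and of 16 other lysosomal membrane proteins 10 (0.07). Without sIVs replicate 4 these were 21 of 35 (0.012) and 9 of 16 (0.012), and without PBS replicate 1 the hydrolases were 18 of 35 (0.0064). With both libraries left out 13 of 35 hydrolases had a positive difference (median -0.039). Here too PBS replicate 1 was lowest for 17 and sIVs replicate 4 highest for 18 of the 35, which builds in lower differences.

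Cathepsin S, a protease of microglia and macrophages encoded by Ctss, stood at 7.79, 18.9, 21.4 and 27.0 CPM in PBS and 21.1, 21.3, 42.2 and 40.4 CPM in sIVs retinas (difference 0.73 ± 0.38 SE). The alpha-galactosidase gene Gla was more even, at 26.4, 24.2, 28.0 and 25.8 CPM in PBS and 29.5, 26.8, 33.9 and 30.9 CPM in sIVs retinas, with the sIVs value higher in 15 of 16 pairs (difference 0.21 ± 0.11 SE; edgeR adjusted p = 0.81). Its difference lay between 0.15 and 0.27 with each library left out in turn. In the membrane list Laptm4b and the lysosomal ion channel gene Tpcn1 had differences of 0.29 ± 0.17 and -0.24 ± 0.15 (SE), or 0.10 and -0.13 without sIVs replicate 4.

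Of 26 other core autophagy genes 10 had a positive and 16 a negative difference (median -0.04), and of 13 selective autophagy receptors 7 and 6 (0.01). Both medians had the other sign without sIVs replicate 4: 15 of the core genes were then positive and 11 negative (median 0.0056), and 3 of the receptors positive and 10 negative (-0.022). The core genes were also 15 positive and 11 negative with both libraries left out and with limma-voom, and 14 and 12 with the gene-length correction. Wdr45, a lipid-binding relative of Wipi2, was the only one of the 144 whose groups did not overlap, at 14.5, 13.9, 14.8 and 12.9 CPM in PBS and 15.5, 15.3, 24.1 and 15.7 CPM in sIVs retinas (2.01% of all genes did not overlap). Of its sIVs values 3 lay just above the PBS range, and the difference was 0.33 ± 0.17 (SE; edgeR adjusted p = 0.81), or 0.15 without sIVs replicate 4. Ambra1, a regulator of Becn1, had a difference of -0.25 ± 0.17, and the receptor genes Wdfy3 and Nbr1 differences of -0.33 ± 0.32 and -0.16 ± 0.17 (SE); without that library Ambra1, Wdfy3 and Nbr1 had -0.097, -0.084 and -0.027. Of the 26 core genes 15 were lowest in sIVs replicate 4, as was Wdfy3, at 160 CPM against 291 to 540 CPM in the other 7 libraries.

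Sorting of lysosomal enzymes gave 4 positive and 6 negative differences of 10 (median -0.06). The adaptor gene Gga1 had 0.24 ± 0.15 (SE), and Igf2r, a mannose 6-phosphate receptor, had -0.33 ± 0.22. Without sIVs replicate 4 there were 5 of each sign (median -0.0017), with 0.067 for Gga1 and -0.14 for Igf2r, and with limma-voom 6 positive and 4 negative. The 25 genes of mTORC1 and nutrient sensing, the kinase complex that holds autophagy and TFEB in check when nutrients abound, gave 13 positive and 12 negative differences (median 0.02), and without sIVs replicate 4 they gave 10 and 15 (-0.0073). Mitf, a relative of Tfeb, had the only unadjusted p under 0.05 of the 144 (0.0449; edgeR adjusted p = 0.81; 1.5% of all genes were under 0.05). It stood at 8.92, 10.2, 33.8 and 10.2 CPM in PBS and 8.24, 7.67, 6.48 and 9.49 CPM in sIVs retinas. PBS replicate 4 stood far above the other 7 libraries, and the difference of -0.99 ± 0.43 (SE) was -0.30 without it. Lamtor4, a subunit of the lysosomal anchor of mTORC1, had a difference of 0.51 ± 0.29 (SE), and 0.09 without sIVs replicate 4.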

How the data were processed

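Deposited files held whole-number read counts for 54532 genes and FPKM. Recomputed from count, listed gene length and column total, the deposited FPKM differed by a factor between 0.943 and 1.03 that was constant in each library. The libraries were poly(A) selected, made with a strand-marking kit and read as 150 bp pairs, per the labels' protocols. Coordinates are those of mm10, the build named per the submitters' processing notes. No source used here gives how reads were aligned and counted, or whether by strand. Of the 33 members, 31 had the same coordinates in GENCODE M21. Another listed gene overlapped 20 of the 33, on the opposite strand for 15, and not all of these overlaps are named here.

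Groups came from the sample titles. Genes were filtered with filterByExpr (17004 kept), scaled by TMM and compared in edgeR 4.0.16 under R 4.3.3 by its quasi-likelihood test (glmQLFTest, two-sided). The model held the group alone. Benjamini-Hochberg adjusted p-values ran over all genes, with a threshold of 0.05. Standard errors are the absolute log2 difference divided by the square root of F, and intervals use the t distribution of that test; both are approximate. The common biological coefficient of variation was 0.254 and depth 13803958 to 16622259 counts. Alternatives used DESeq2 1.42.0, limma 3.58.1 on counts (voom with sample quality weights) and on log2(FPKM + 1) and log2(FPKM + 0.1), other scaling and filters, a replicate block and left-out libraries. A gene-length offset (lowess, span 0.3) and leaving out 2 libraries together were chosen after seeing the data.

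The members and lists were chosen with earlier results of these data known. Values of every library are given for members past the threshold or without overlap (there were 0), for the Atg8 family with Sqstm1, and for the 2 members of smallest p in each of 7 roles; related genes are the 2 of smallest p in each of 7 lists. Values of Npc1 were added after they were seen. Retreg1 was matched by an older symbol. Some genes of the lists are not reported by name here.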

Additional observations from a re-analysis of the deposited data

Results flagged for a closer look

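Of 100 groups of 4 values examined for a library far from the others, 4 held one, and chance gives about 1 in 20. All 4 were of single genes. The summed CPM of the members, of the autophagy members and of the lysosome members held none. Tfe3 stood at 48.8 CPM in PBS replicate 1, the lowest of its group, against 52.5 to 52.8 CPM in the other 3. Mitf stood at 33.8 CPM in PBS replicate 4 against 8.92 to 10.2 CPM in the other PBS libraries, while the pigment epithelium markers summed to 11.5 CPM in that library, the third lowest of 8. Lamtor4 stood at 51.0 CPM in sIVs replicate 4 against 20.5 to 23.8 CPM in the other sIVs libraries. Wdr45 stood at 24.1 CPM in sIVs replicate 4 against 15.3 to 15.7 CPM.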

How the results depend on the processing

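No gene, no member and no related gene passed the threshold in edgeR, DESeq2 or limma under any of the settings run; at an unadjusted p under 0.05 edgeR gave 255 genes, DESeq2 322 and limma-voom 455, of which 0, 0 and 1 were members. With edgeR that number of genes was 588 with a replicate block, 803 of 31766 without a filter, 431 with PBS replicate 1 and sIVs replicate 4 both left out, and 136 (without PBS replicate 3) to 958 (without sIVs replicate 3) with 1 library left out; 169 without PBS replicate 5 and 763 without sIVs replicate 1, with 1 member, also differed from 255 by over 1.5 times. The 95% intervals of 8 members reached a 2-fold difference. Leaving out each library in turn, the median over members lay between 0.018 and 0.21 and the number of positive members between 18 and 28, both lowest without sIVs replicate 4. With limma-voom and sample quality weights 12 of 33 members were positive and the median over autophagy members was -0.021. With PBS replicate 1 and sIVs replicate 4 both left out 9 were positive and that median was -0.018, in a setting that builds in lower differences. The cause was not tested.

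Single genes changed sign as follows. Leaving out PBS replicate 1 and sIVs replicate 4 together builds in lower differences for most members, so those changes were partly fixed beforehand. With limma-voom the differences were -0.049 for Atg5, -0.024 for Ctsa, -0.16 for Ctsb, -0.17 for Ctsl, -0.20 for Ctsz, -0.15 for Gabarap, -0.016 for Gabarapl2, -0.12 for Grn, -0.0056 for Lamp1, -0.052 for Map1lc3a, -0.039 for Map1lc3b, -0.060 for Npc2, -0.032 for Psap and -0.080 for Sqstm1. With both libraries left out they were -0.022 for Atg7, -0.054 for Ctsa, -0.20 for Ctsb, -0.033 for Ctsd, -0.17 for Ctsl, -0.23 for Ctsz, -0.043 for Gaa, -0.18 for Gabarap, -0.058 for Glb1, -0.14 for Grn, -0.0055 for Hexa, -0.023 for Lamp1, -0.061 for Map1lc3a, -0.045 for Map1lc3b, 0.0018 for Npc1, -0.060 for Npc2, -0.041 for Psap, -0.099 for Sqstm1, -0.015 for Tfeb and 0.0080 for Nbr1. With the gene-length correction they were -0.028 for Atg5, 0.056 for Becn1, -0.12 for Gabarapl1, 0.18 for Lamp2 and 0.16 for Tfe3. Leaving out each library in turn, the ranges that crossed 0 were -0.0067 to 0.14 for Atg4b, -0.0053 to 0.22 for Atg5, -0.082 to 0.0035 for Becn1, -0.045 to 0.29 for Ctsb, -0.00022 to 0.50 for Ctsl, -0.012 to 0.55 for Ctsz, -0.035 to 0.60 for Gabarap, -0.013 to 0.077 for Gabarapl1, -0.16 to 0.11 for Lamp2, -0.0057 to 0.31 for Map1lc3b, -0.038 to 0.18 for Sqstm1, -0.036 to 0.025 for Tfe3 and -0.015 to 0.053 for Wipi2.

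With a replicate block 27 of 33 members were positive, with a median of 0.13 and 0 past the threshold, and Lamp2 had a difference of 0.0071. Deviations from the group means of same-numbered libraries correlated at 0.60, 0.025, 0.23 and 0.51 for numbers 1, 3, 4 and 5 across genes. For numbers 1, 4 and 5 this was the highest correlation of either library with any library of the other group. PBS replicate 3 correlated better with sIVs replicate 5 (0.26), and sIVs replicate 3 with PBS replicate 1 (0.22). The labels do not say whether libraries of the same number were paired or shared a batch, and these values do not settle it. The main model left the number out.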
